A study of Homo sapiens with 10 samples.

Results

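The genes described here encode the RNA exosome subunits EXOSC1 to EXOSC10, found in the count table by their symbols, and make up 10 of the 18686 genes named there. They were targeted by 30 of the 55849 sgRNAs, 3 for each gene. The set was taken up because 1 of the EXOSC4 sgRNAs was among the few that passed a test between T12 and T0 in NMYC cells, so values from that comparison are given below as a description only. All cells were 22Rv1, a human prostate cancer cell line. One arm, labelled NMYC, overexpressed the protein of MYCN. Its libraries numbered 1 at T0, 2 at T6 and 2 at T12, as did those of the other arm, which the labels call only parental. Both arms were infected at a multiplicity of 0.3 with a lentiviral library carrying Cas9 and the sgRNAs, selected with puromycin and passaged every 72 hours for 12 generations as duplicate cultures. How NMYC was expressed, and whether the NMYC cells were 1 clone, was not given in the sources used here. Sequenced DNA of sgRNA cassettes holds no cell type markers, so the line could not be checked against its own.

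The RNA exosome is the main 3′ to 5′ RNA-degrading machine of eukaryotic cells. It trims ribosomal and small nucleolar RNAs and destroys faulty or short-lived transcripts in the nucleus and cytoplasm. Its barrel has a ring of 6 proteins related to bacterial RNase PH (EXOSC4, EXOSC5, EXOSC6, EXOSC7, EXOSC8 and EXOSC9) under a cap of 3 RNA-binding proteins (EXOSC1, EXOSC2 and EXOSC3). In humans the barrel does not cut RNA, and the attached nucleases EXOSC10, DIS3 and DIS3L do. Exosome subunits are needed for growth in most cultured cells, and an sgRNA that harms growth becomes rarer over time in such a screen.

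Library totals lay between 8783512 and 18398571 counts, and the median sgRNA of a library had 50 to 187 counts. One count is a sequenced PCR product without a molecular identifier, so depth speaks for counting error only. A mean of at least 20 counts over the 10 libraries was required, which 29 of the 30 exosome sgRNAs met. The exception was 1 against EXOSC2, with a mean of 12.4 counts. Gene levels are sums over the kept sgRNAs of CPM, counts scaled to a library total of 1e+06. A log2 value of a gene means the log2 ratio of its mean levels, with 1 CPM added, minus that of the median of 18197 genes tested. Each T0 group is a single library, and both cultures of an arm come from 1 infection, so p-values cover only the spread that arose afterwards. At the guide level this spread was wide. Between the 2 T12 libraries of NMYC cells 12 of the 29 exosome sgRNAs differed by over 4-fold (37.1% of all kept sgRNAs), and between those of parental cells 14 did (40.8% of all). The T0 libraries of the arms were over 4-fold apart for 16 of the 29, where 42.3% of all kept sgRNAs were.

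**Figure D1:**
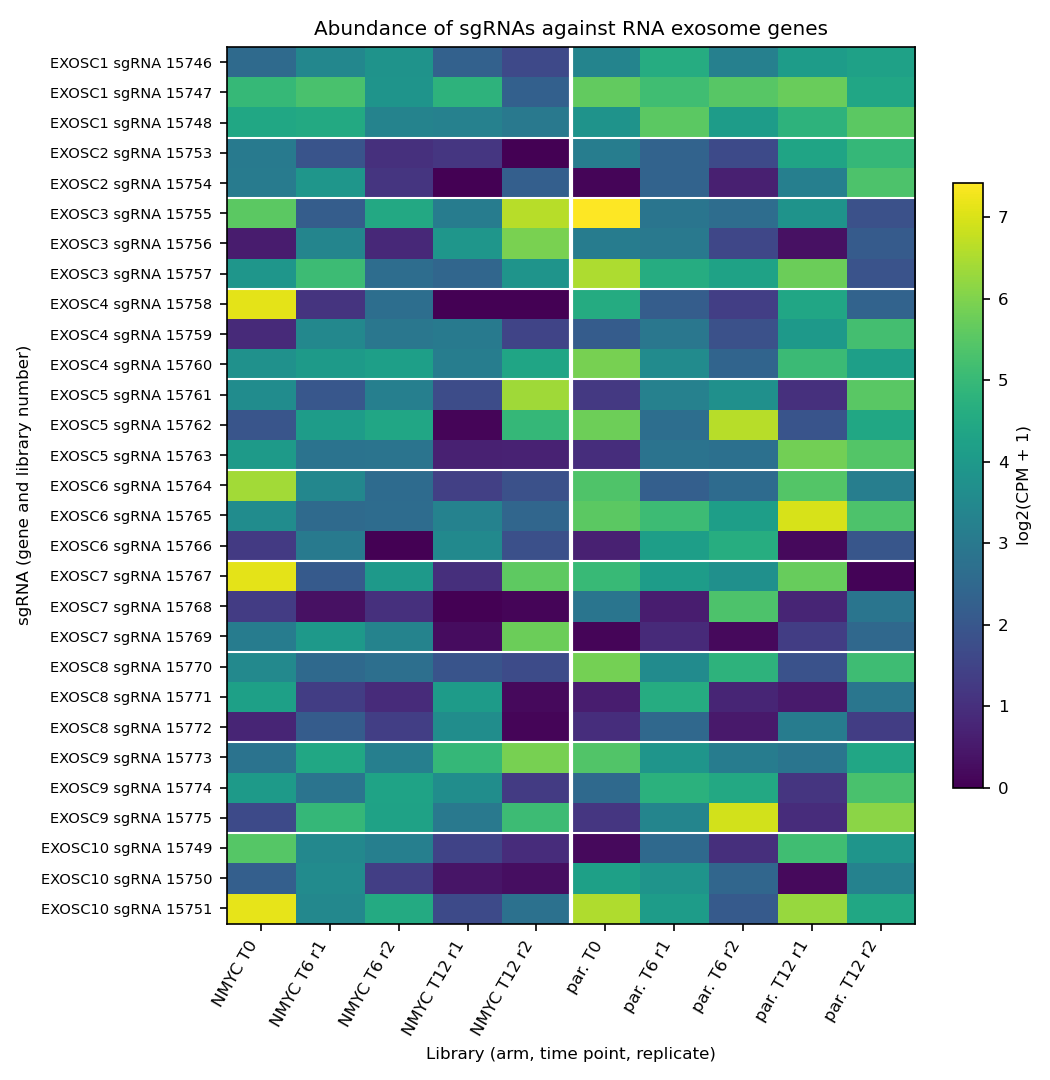
Abundance of the 29 kept exosome sgRNAs (rows, by gene) in the 10 libraries (columns, NMYC left of parental, r1 and r2 being replicates), as log2(CPM + 1) on the colour scale. The top EXOSC4 row is brightest at NMYC T0 and at 0 in both NMYC T12 libraries. All 3 EXOSC10 rows are darker in both NMYC T12 libraries than at NMYC T0.

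EXOSC4, the human counterpart of yeast Rrp41 in the ring, is the gene through which the set was chosen. Its sgRNA HGLibB_15758 had 1787 counts at T0, 23 and 68 at T6, then 0 and 0 at T12 in NMYC cells. In parental cells the same sgRNA had 306 counts at T0, 62 and 11 at T6, then 308 and 67 at T12. In NMYC cells it was already scarce at T6 and undetected at T12, while the parental T12 libraries still held it. Taking 3 counts per library as the floor, the NMYC T12 level was at least 672-fold lower than that of the single T0 library. This bound covers counting error only, not the spread between libraries, and this T0 count was among the values that chose the set. The other 2 EXOSC4 sgRNAs did not follow it. HGLibB_15759 had 11 counts at T0, then 195 and 83 at T6, and later 112 and 26 at T12 in NMYC cells. HGLibB_15760 had 160 counts at T0, 305 and 217 at T6, then 120 and 273 at T12 in NMYC cells. One of the 3 sgRNAs therefore carried most of the gene's level at NMYC T0 and the whole of its fall by T12.

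In the comparison that chose the set, 7 of 53040 sgRNAs had passed as lower at T12 than at T0 in NMYC cells (0.0132%), the EXOSC4 sgRNA among them, and nothing is read from that count. The sgRNA just inside the threshold beside it, against HIGD1B, had 1613 counts at T0 and 0 and 0 at T12, and the nearest outside, against ZNF705B, had 1533 counts at T0 and 0 and 0 at T12. Of all kept sgRNAs with at least 1000 counts at NMYC T0, 37 of 3978 (0.930%) had at most 2 counts in both T12 libraries. Among exosome sgRNAs this was 1 of 4, the 1 being HGLibB_15758, so that this count was fixed by the choice of the set. Among non-targeting sgRNAs it was 1 of 61 and among olfactory receptor sgRNAs 1 of 100. In parental cells it was 0 of 3 exosome sgRNAs and 46 of 5844 of all (0.787%). At this limit of at most 2 counts, loss of an abundant sgRNA thus also occurred among sgRNAs with no target. HGLibB_15758 had 0 counts in both NMYC T12 libraries. So did 0 of the 61 non-targeting sgRNAs, 1 of the 100 olfactory receptor sgRNAs and 14 of the 3978 of all (0.352%). The cause of these losses was not tested.

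At the gene level EXOSC4 had 152 CPM at T0, 28.1 ± 1.73 at T6, then 18.4 ± 4.52 at T12 in NMYC cells (SD, n = 2 at T6 and T12). Parental cells had 85.5 CPM at T0, 14.9 ± 9.13 at T6, then 62.0 ± 6.74 at T12. Both arms were thus low at T6, and the parental level at T12 stood closer to its T0 level again. The 57.2 and 66.7 CPM of parental T12 did not overlap the 8.46 and 21.4 CPM of parental T6, a log2 value of 1.83 with all 3 sgRNAs above the median sgRNA. By rank aggregation, which scores a gene by how high its sgRNAs rank, the parental difference of T12 over T6 did not pass (unadjusted p of 0.0157, adjusted p = 0.901 over all genes, from edgeR sgRNA p-values).

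EXOSC10 is the nuclear exosome nuclease of the RNase D family that trims ribosomal RNA precursors. All 3 of its sgRNAs had fewer counts in both NMYC T12 libraries than at NMYC T0. The highest of these T12 counts, 80 for HGLibB_15751 in replicate 2, was near that library's median of 82. The summed EXOSC10 level in NMYC cells was 188 CPM at T0, 31.1 and 32.0 CPM at T6 and 4.32 and 6.92 CPM at T12. Parental cells had 110 CPM at T0, 34.5 and 8.75 CPM at T6 and 112 and 42.5 CPM at T12. In NMYC cells each later time point lay below the earlier one without overlap, while parental T12 lay above parental T6. With a log2 value of -4.87, EXOSC10 ranked 26 from the lowest of 18197 genes between T12 and T0 in NMYC cells, a description only because the set was chosen on that comparison.

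The 3 EXOSC10 sgRNAs started from very different counts. HGLibB_15751 had 1821 counts at T0, 197 and 278 at T6, then 33 and 80 at T12 in NMYC cells, against 1232 at T0, 286 and 23 at T6, then 1191 and 327 at T12 in parental cells. HGLibB_15749 had 557 counts at T0, 195 and 104 at T6, then 28 and 13 at T12 in NMYC cells, against 2 at T0, 84 and 7 at T6, then 536 and 218 at T12 in parental cells. HGLibB_15750 had 48 counts at T0, 214 and 20 at T6, then 5 and 3 at T12 in NMYC cells, against 238 at T0, 233 and 31 at T6, then 2 and 140 at T12 in parental cells. All 3 were scarcer at T12 than at T6 in NMYC cells, and HGLibB_15750 was also scarce in 1 parental T12 library.

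At T12 over T6 in NMYC cells, a comparison that leaves out the T0 libraries but shares the T12 libraries with the one that chose the set, EXOSC10 had a log2 value of -2.64 and ranked 170 from the lowest. Rank aggregation gave an unadjusted p of 0.00256 and an adjusted p of 0.977 over all genes (edgeR sgRNA p-values), so the call was not made. On counts summed per gene, edgeR gave an unadjusted p of 0.00928 and an adjusted p of 1.00 for the same difference. In parental cells the difference of EXOSC10 at T12 over T6 was 1.64 (adjusted p = 0.992 by rank aggregation on edgeR p-values, 0.0372 unadjusted).

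**Figure D2:**
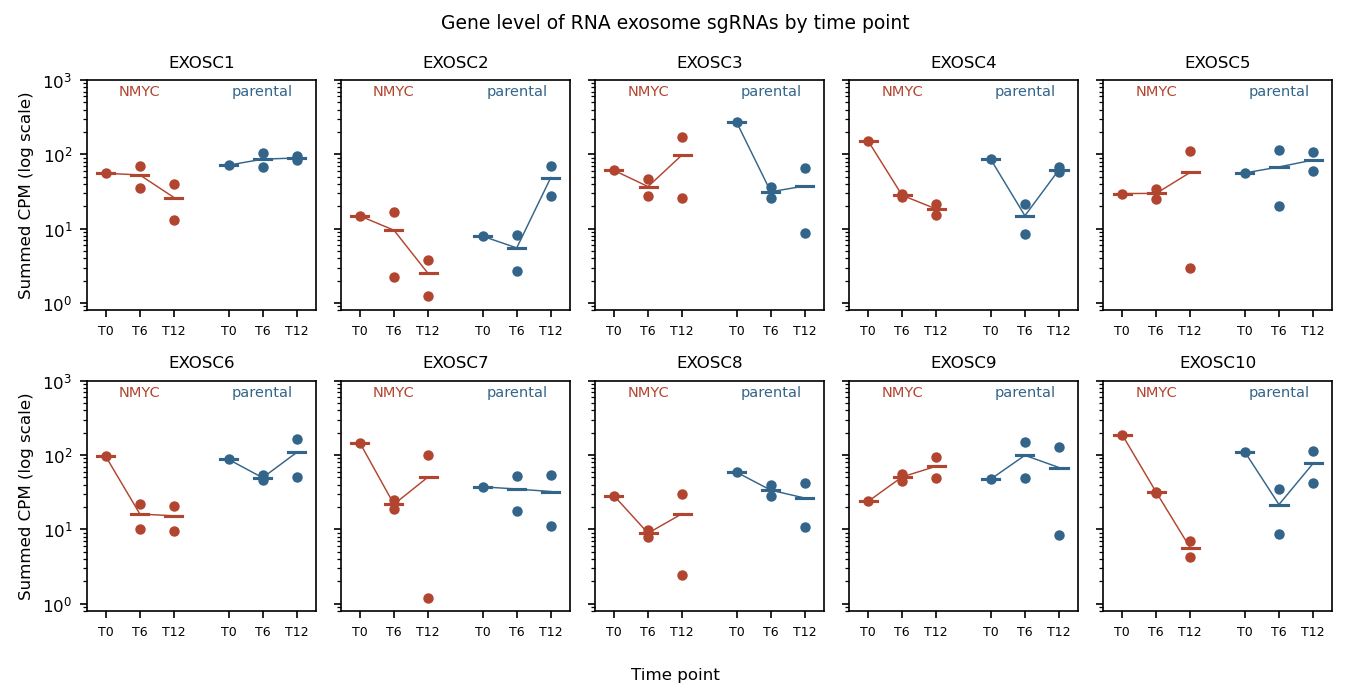
Summed CPM (log axis) of each exosome gene at T0, T6 and T12, NMYC cells at the left of each panel and parental cells at the right. Points are libraries, short bars are means and thin lines join them; EXOSC10 lies at 4.32 and 6.92 CPM at NMYC T12 and at 112 and 42.5 CPM at parental T12, while EXOSC5 and EXOSC7 are split between replicates.

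The cap genes differed among themselves. EXOSC1, the counterpart of yeast Csl4, had 55.6 CPM at T0, 70.0 and 35.6 at T6, then 39.4 and 13.0 at T12 in NMYC cells. In parental cells EXOSC1 had 71.4 CPM at T0, 104 and 68.5 at T6, then 94.7 and 83.8 at T12. Both NMYC T12 libraries lay below NMYC T0, and both parental T12 libraries above parental T0.

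EXOSC2, the counterpart of yeast Rrp4, rests on 2 sgRNAs. It had 14.8 CPM at T0, 16.8 and 2.23 at T6, then 1.24 and 3.75 at T12 in NMYC cells. Parental cells had 7.91 CPM at T0, 8.28 and 2.72 at T6, then 27.7 and 69.8 at T12. Its kept sgRNA HGLibB_15754 had 96 counts at T0 and 0 and 52 at T12 in NMYC cells, and 1 count at T0 and 128 and 644 at T12 in parental cells. The parental value of EXOSC2 thus starts from a T0 library in which 1 of its 2 kept sgRNAs was nearly absent.

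EXOSC3, the counterpart of yeast Rrp40, ran the other way. In NMYC cells it had 60.8 CPM at T0, 46.3 and 27.3 at T6, then 26.0 and 171 at T12. In parental cells it had 269 CPM at T0, 36.9 and 25.8 at T6, then 66.4 and 8.76 at T12. All 4 later parental libraries lay below T0, whereas the NMYC T12 libraries lay on both sides of theirs. The log2 value in parental cells was -2.71 at T12 over T0 (adjusted p = 0.977 by rank aggregation on edgeR p-values, 0.0284 unadjusted) and -2.86 at T6 over T0 (adjusted p = 0.982, 0.0269 unadjusted).

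Most of the EXOSC3 value came from HGLibB_15755, which had 2287 counts at T0, 112 and 37 at T6, then 202 and 42 at T12 in parental cells. It had the lowest edgeR p of all 29 exosome sgRNAs in both parental comparisons with T0. Relative to the median sgRNA its log2 value was -5.01 at T12 over T0 and -5.51 at T6 over T0. The tests were of the values before that median was subtracted. In edgeR these were -4.45 at T12 (fit SE 1.57, adjusted p = 0.314) and -4.86 at T6 (fit SE 1.60, adjusted p = 0.476). DESeq2 gave adjusted p = 0.0422 and 0.0330 for these differences. In NMYC cells this sgRNA had 597 counts at T0 and 117 and 1358 at T12.

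Of the remaining ring genes, EXOSC6 had a gap between the arms at both T6 and T12. EXOSC6, related to yeast Mtr3, had 95.9 CPM at T0, 22.0 and 10.2 at T6, then 20.9 and 9.59 at T12 in NMYC cells. Parental cells had 87.4 CPM at T0, 53.6 and 45.6 at T6, then 166 and 50.7 at T12. NMYC and parental libraries did not overlap at T6 or at T12.

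EXOSC5, EXOSC7 and EXOSC8, the counterparts of yeast Rrp46, Rrp42 and Rrp43, were decided by which replicate was read. At T12 EXOSC5 had 2.94 and 111 CPM in NMYC cells, against 60.1 and 108 CPM in parental cells. EXOSC7 had 1.18 and 100.2 CPM in NMYC cells, against 53.5 and 11.2 CPM in parental cells. EXOSC8 had 30.1 and 2.45 CPM in NMYC cells, against 10.7 and 42.1 CPM in parental cells. In all 3 the NMYC replicates enclosed or overlapped the parental ones. For EXOSC7 the sgRNA HGLibB_15767 had 1766 counts at NMYC T0 and then 15 and 656 at T12, and in parental cells 414 counts at T0 and then 793 and 1 at T12.

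EXOSC9, the PM/Scl-75 autoantigen and counterpart of yeast Rrp45, had the highest log2 value of the set in NMYC cells at T12 over T0, 1.51. It had 23.8 CPM at T0, 56.3 and 45.4 at T6, then 48.4 and 93.0 at T12 in NMYC cells. Parental cells had 47.5 CPM at T0, 48.5 and 150 at T6, then 8.46 and 128 at T12. Every later NMYC library lay above T0, and the parental T12 libraries lay on either side of theirs.

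Set against parental cells at T12, a comparison that shares the NMYC T12 libraries with the one that chose the set, 7 of the 10 exosome genes lay below the median gene in NMYC cells. EXOSC2 at -3.76, EXOSC10 at -3.49, EXOSC6 at -2.68, EXOSC1 at -1.66 and EXOSC4 at -1.63 were lowest, and in these 5 every NMYC library lay below every parental one. Without EXOSC4, whose NMYC T12 counts chose the set, these were 4 of 9, and the same held for 19% of all genes tested. Leaving out 1 library at a time gave -4.40 to -3.08 for EXOSC2 and -4.13 to -2.78 for EXOSC10. EXOSC1 had -0.82 without NMYC T12 replicate 2 and -2.67 without replicate 1, and EXOSC6 had -1.73 without parental T12 replicate 1. The highest were EXOSC3 at 1.44 and EXOSC7 at 0.70, both with overlapping libraries. Without NMYC T12 replicate 2 their values were -0.18 and -3.61, and for 0 of the 10 did every NMYC library lie above every parental one (14.8% of all genes). The median of the 10 was -1.11, and over the 9 without EXOSC4 it was -0.60 with 6 of 9 below the median gene.

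None of these differences passed the test. EXOSC4 was left out of testing in comparisons with NMYC T0 or T12. Rank aggregation on edgeR p-values called 0 of the other 9 genes lower or higher (0% of 18197 genes in each direction), with adjusted p of at least 0.972 for lower and 0.976 for higher. At an unadjusted p under 0.05 the lower ones were EXOSC10 (0.00375), EXOSC2 (0.0218), EXOSC6 (0.0272) and EXOSC1 (0.0427), 4 of 9 against 5.11% of all genes. EXOSC3 (0.0258) was the 1 higher gene, against 4.89% of all. On counts summed per gene, edgeR gave adjusted p of 0.306 for EXOSC10, 0.488 for EXOSC6 and 0.541 for EXOSC2. With the cultures of each arm as a replicate block, 0 of the 9 genes passed as well. At an unadjusted p under 0.05 there were 5 with the block and 5 without it. This count does not separate lower from higher genes, and the share over all genes was not computed with the block.

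**Figure D3:**
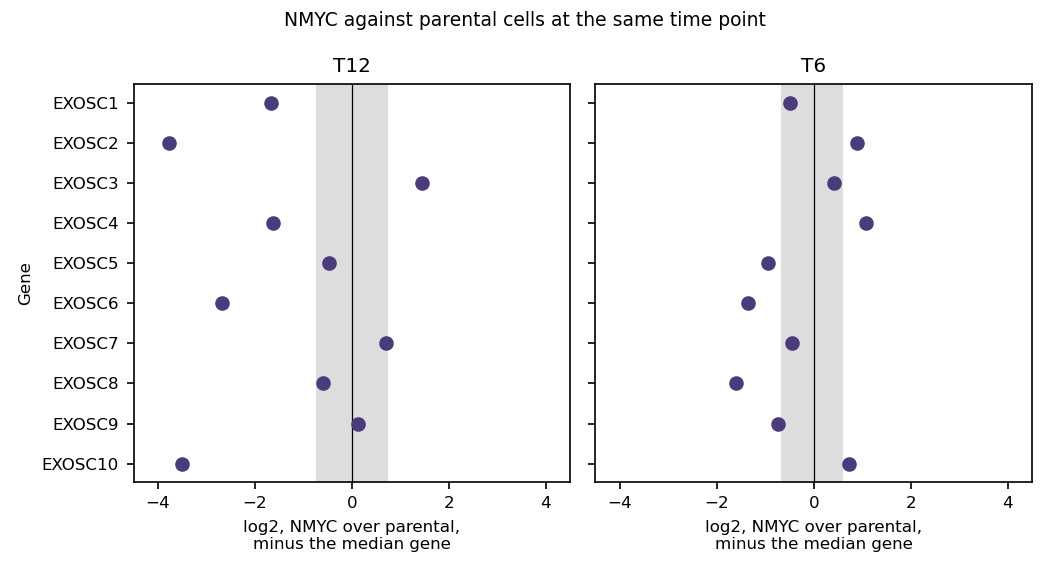
Gene log2 value of NMYC over parental cells at T12 (left) and T6 (right), minus the median gene; each point is 1 exosome gene and the grey band holds the middle 50% of all genes tested. At T12, EXOSC2 (-3.76), EXOSC10 (-3.49) and EXOSC6 (-2.68) lie far left of the band; at T6 EXOSC2 and EXOSC10 lie on the right.

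Of single sgRNAs at T12, 20 of 29 lay below the median sgRNA in NMYC over parental cells, with a median of -1.57, where 47.4% of the non-targeting sgRNAs did. Without those against EXOSC4 it was 17 of 26, with a median of -1.55. Their calls depended on the software. With edgeR 0 of 26 sgRNAs differed between the arms at T12 after adjustment, against 0.00189% of all sgRNAs called as lower and 0% as higher ones. At an unadjusted p under 0.05 there were 5 lower and 1 higher, where 5.74% and 5.22% of all were. DESeq2 called 6 of the 26, all lower, where it called 4.3% of all sgRNAs lower and 4.08% higher. They were 2 against EXOSC10, 2 against EXOSC6 and 1 each against EXOSC2 and EXOSC5. The EXOSC5 sgRNA HGLibB_15763 had 9 and 9 counts at T12 in NMYC cells, against 871 and 687 in parental cells. Its log2 value relative to the median sgRNA was -6.23, that median being -0.073. The fit SE of 2.34 and the p-values belong to the value before this subtraction (edgeR adjusted p = 0.298, DESeq2 adjusted p = 2.64e-05). The other 2 EXOSC5 sgRNAs had 35 and 1124, and 1 and 413 counts at NMYC T12, so the gene sum of EXOSC5 did not share this gap.

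At T6 other genes stood at the ends of the order. EXOSC8 had the lowest log2 value of NMYC over parental, -1.61, with 9.82 and 7.97 CPM in NMYC cells against 39.1 and 28.2 in parental cells, followed by EXOSC6 at -1.36. EXOSC4 was highest at 1.07, with 26.9 and 29.3 CPM against 21.4 and 8.46, and EXOSC2 and EXOSC10 had 0.90 and 0.73. The libraries of the arms did not overlap for 2 genes lower in NMYC cells, EXOSC6 and EXOSC8 (18.7% of all genes), and 1 higher, EXOSC4 (15%). No gene of the 10 passed by rank aggregation (0% of all in each direction). At an unadjusted p under 0.05 there were 0 lower (4.97% of all) and 0 higher (5.11%), and the lowest adjusted p was 0.962, for EXOSC7 as higher, whose summed level had a log2 value of -0.45. Among sgRNAs 0 of 29 passed in edgeR (0% of all), with 0 at an unadjusted p under 0.05 (2.52% of all lower, 0.899% higher), and 0 in DESeq2 (0.264% and 0.0981%). EXOSC6 lay below parental cells without overlap at both T6 and T12, as did 4.09% of all genes. For 5 of the 10 genes the signs at T6 and T12 were opposite, and the share over all genes was not computed. EXOSC2, EXOSC4 and EXOSC10 lay above 0 at T6 and below it at T12. EXOSC7 (-0.45 at T6) and EXOSC9 (-0.75 at T6) went the other way round. At T12 EXOSC7 had -3.61 without NMYC replicate 2, and EXOSC9, at 0.12, had -0.90 without parental replicate 1. The T6 sign of EXOSC2 rested on NMYC replicate 1 (-0.71 without it) and that of EXOSC10 on parental replicate 2 (-0.20 without it), and without parental replicate 2 EXOSC4 had 0.30.

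Against T0, the parental arm showed no common direction in the set at T12. The median log2 value was 0.15, with 5 of 10 genes below the median gene, and EXOSC3 (-2.71) and EXOSC2 (2.58) at the ends. Both T12 libraries lay below T0 for 3 genes (41.8% of all) and above it for 3 (31.3% of all). By rank aggregation 0 of 10 genes passed (0% of all in each direction). At an unadjusted p under 0.05 EXOSC3 was the 1 lower gene (5.11% of all) and 0 were higher (4.85%). EdgeR called 0 of 29 sgRNAs (0.0226% of all lower, 0% higher). At an unadjusted p under 0.05 it had 1 lower (5.92% of all) and 3 higher (5.31%), and DESeq2 called 4, of which 1 was lower and 3 higher (3.99% and 7.91% of all). The 3 sgRNAs that DESeq2 called higher, against EXOSC2, EXOSC5 and EXOSC10, had 1, 13 and 2 counts at parental T0. EXOSC3 had -1.76 without parental T12 replicate 2 and -4.55 without replicate 1.

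At T6 over T0 the parental median was -0.42, with 6 of 10 genes below. EXOSC3 (-2.86), EXOSC4 (-2.24) and EXOSC10 (-2.09) were lowest and EXOSC9 (1.25) highest. For 5 genes both T6 libraries lay below T0 (44.9% of all) and for 1 above (29.4%). None of the 10 passed by rank aggregation (0% of all). EXOSC3 was the 1 lower gene at an unadjusted p under 0.05 (5.01% of all), and 0 were higher (4.88%). EdgeR called 0 of 29 sgRNAs (0.00189% of all lower, 0% higher). It had 2 lower (4.45% of all) and 1 higher (4.82%) at an unadjusted p under 0.05, and DESeq2 called 2, against EXOSC3 as lower and EXOSC9 as higher (1.96% and 5.95% of all). At T12 over T6 the parental median was 0.13, and EXOSC2 at 2.79, EXOSC4 at 1.83 and EXOSC10 at 1.64 were the highest, each with T12 above T6 in all libraries (20.7% of all genes). Without parental T6 replicate 2, EXOSC4 had 1.03 and EXOSC10 had 0.67, and without parental T6 replicate 1 they had 2.66 and 2.93. After adjustment 0 of 10 passed by rank aggregation (0% of all). Those 3 were the higher genes at an unadjusted p under 0.05 (4.89% of all), and 0 were lower (4.9%). For 0 of 10 did T12 lie below T6 without overlap (10.8% of all). EdgeR called 0 of 29 sgRNAs (0% of all), with 0 at an unadjusted p under 0.05 (4.32% of all lower, 2.12% higher), and DESeq2 called 0 (1.94% and 0.627%).

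In NMYC cells T6 over T0 shares the T0 library with the comparison that chose the set. There the median was -0.91 with 7 of 10 genes below, and -0.48 with 6 of 9 below when EXOSC4 is left out. The order had EXOSC7 (-2.46), EXOSC10 (-2.31), EXOSC6 (-2.27), EXOSC4 (-2.16) and EXOSC8 (-1.34) at the low end and EXOSC9 (1.30) at the top. Both T6 libraries lay below T0 for 6 genes, EXOSC4 among them (48.4% of all) and above for 1 (30.1%). Of the 9 genes tested 0 passed by rank aggregation (0% of all), and at an unadjusted p under 0.05 there were 0 lower (5.12% of all) and 0 higher (4.96%). EdgeR called 0 of 26 sgRNAs (0% of all) and DESeq2 called 0 (0.112% lower, 0.0634% higher). At an unadjusted edgeR p under 0.05 HGLibB_15767 against EXOSC7 and HGLibB_15751 against EXOSC10 were lower (3.24% of all) and 0 were higher (0.452%). At T12 over T6 the NMYC median was -0.14 with 5 of 10 genes below, and 0.13 with 4 of 9 below when EXOSC4 is left out. EXOSC10 (-2.64), EXOSC2 (-1.93), EXOSC1 (-1.32) and EXOSC4 (-0.92) were lowest, and for EXOSC4 and EXOSC10 T12 lay below T6 without overlap (12.2% of all genes). For 0 of 10 did T12 lie above T6 without overlap (24.4% of all). After adjustment 0 of 9 genes passed by rank aggregation (0% of all), with EXOSC10 the 1 lower gene (4.96% of all) and EXOSC3 the 1 higher (4.7%) at an unadjusted p under 0.05. The sign of EXOSC3 rested on NMYC T12 replicate 2 (-0.56 without it). EXOSC2 had -0.27 without NMYC T6 replicate 1, and EXOSC1 had -0.48 without NMYC T12 replicate 2 and -2.33 without replicate 1. EdgeR called 0 of 26 sgRNAs (0% of all), with 0 at an unadjusted p under 0.05 (2.84% of all lower, 1.57% higher), and DESeq2 called 0 (0.673% and 0.28%).

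Over the whole time course in NMYC cells, given without a test, 7 of 10 genes lay below the median gene at T12 over T0 with a median of -1.31, and 6 of 9 with -1.08 when EXOSC4 is left out. Both T12 libraries lay below T0 for 6 of 10 genes (37.8% of all) and above it for 1 (31%), from which nothing is read. The same log2 value in NMYC minus that in parental cells had a median of -1.36, with EXOSC2 (-4.68), EXOSC10 (-4.35), EXOSC6 (-2.91) and EXOSC4 (-2.54) lowest and EXOSC3 (3.47) highest. All counted sgRNAs of EXOSC1, EXOSC2 and EXOSC10 lay below the median sgRNA in NMYC cells at T12 over T0. Among genes with 3 kept sgRNAs this held for 2 of 9 exosome genes and 12.8% of all.

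Read library by library, the exosome set had its lowest medians in the 2 NMYC T12 libraries. Its median log2(CPM + 1) relative to the median gene was 0.40 at T0, -0.49 and -0.34 at T6, then -1.11 and -1.56 at T12 in NMYC cells. In parental cells it was 0.28 at T0, 0.01 and -0.34 at T6, then 0.41 and 0.19 at T12. Of the 10 genes, 4 lay below the median gene at T0, 7 and 9 at T6, then 9 and 6 at T12 in NMYC cells. The parental counts were 3 at T0, 5 and 5 at T6, then 3 and 4 at T12. Without EXOSC4 the NMYC medians were 0.34 at T0, -0.54 and -0.40 at T6, then -0.89 and -1.91 at T12. Olfactory receptor genes, 358 in number and not expected to affect growth, lay between 0.11 and 0.51 in all 10 libraries. A median over 358 genes varies less than that over 10, and other sets of 10 genes were not examined. The 30 exosome sgRNAs, 0.0537% of the sgRNAs in the table, held 0.0664% of the counts at T0, 0.0423% and 0.0330% at T6, then 0.0220% and 0.0453% at T12 in NMYC cells. In parental cells they held 0.0605% at T0, 0.0522% and 0.0401% at T6, then 0.0624% and 0.0574% at T12. At most 2 counts were found at T12 for 5 and 5 of the 30 in the NMYC libraries (13.2% and 11.9% of all sgRNAs), HGLibB_15758 being 1 of the 5 in each, and for 2 and 1 of the 30 in the parental ones (15.1% and 9.14%).

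**Figure D4:**
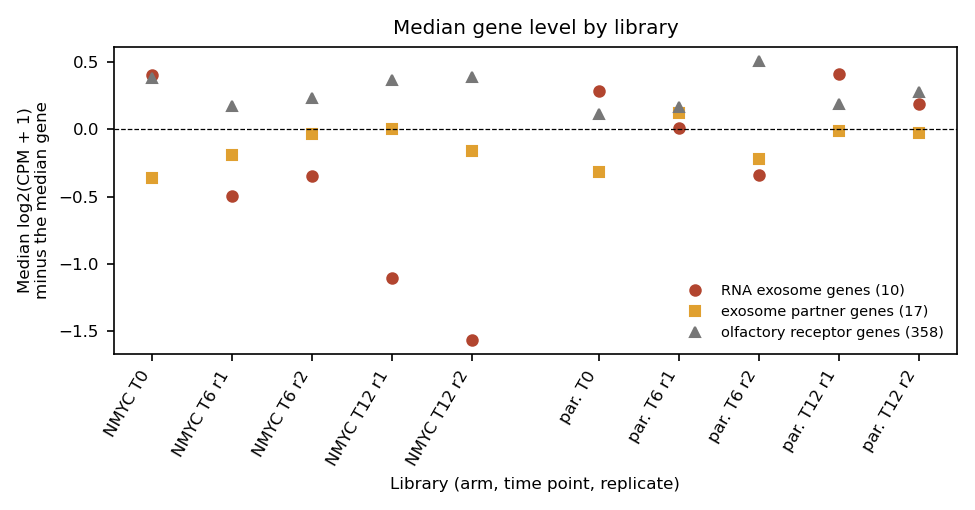
Median gene level of exosome, exosome partner and olfactory receptor genes in each library, as log2(CPM + 1) minus the median gene (dashed line at 0), NMYC left of parental. The exosome median is at -1.11 and -1.56 in the NMYC T12 libraries and between -0.34 and 0.41 in all others except NMYC T6 replicate 1 (-0.49).

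Genes of proteins that work with the exosome had medians between -0.36 and 0.12 in the 10 libraries on the same scale. The 17 partners, listed with earlier results of these data known, comprise the nucleases DIS3 and DIS3L, the helicases and adaptors that feed RNA into the barrel, and the cytoplasmic Ski proteins. Rank aggregation on edgeR p-values called 0 of 17 in each of the tested comparisons. At T12 over T0 in NMYC cells, given without a test, 4 of 17 lay below the median gene and their median was 0.42, with PAPD5 (-2.10), a poly(A) polymerase, and ZFC3H1 (2.18), which connects the exosome to polyadenylated nuclear RNA, at the ends. In parental cells 5 of 17 lay below, with a median of 0.72 and ZCCHC7 (-2.83), an RNA-binding partner of that polymerase, and TTC37 (2.99), a Ski scaffold, at the ends.

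DIS3, which supplies the main catalytic activity of the nuclear exosome and rests on 2 sgRNAs, had 7.21 and 24.0 CPM in NMYC cells at T12, against 61.7 and 145 CPM in parental cells. Its log2 value of -2.58 was the lowest of the partners in that comparison and its libraries did not overlap, but rank aggregation did not call it (adjusted p = 0.972). ZCCHC7 was highest at 1.96. At T12 over T0 the value of DIS3 was 0.60 in NMYC cells and 2.41 in parental cells. DIS3L, the cytoplasmic nuclease, had 0.34 and 1.37, and SKIV2L2, the nuclear helicase also called MTR4, had -0.89 and -1.87 in NMYC and parental cells. At T12 the arms differed by a median of -0.26 over the 17 partners, with 9 of 17 below the median gene.

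Levels of some exosome genes went together over the 10 libraries, given as a description since these share depth and T0. Over the 45 pairs of exosome genes the median Pearson correlation of log2(CPM + 1) was 0.22. Their mean was 0.19, against 0.024 over all pairs of genes tested. Pairs with EXOSC4, whose NMYC T0 and T12 counts chose the set, are included, so no conclusion is drawn from these values. EXOSC4 and EXOSC10 had the highest at 0.90, and EXOSC1 and EXOSC6 the highest of the pairs without EXOSC4 at 0.75. EXOSC9 and EXOSC10 had the lowest at -0.61. The genes most like EXOSC4 among all tested were ADIPOR2 (0.967), TMEM38B (0.965) and CGA (0.963). sgRNAs of the same exosome gene, those against EXOSC4 included, correlated positively in 18 of 28 pairs with a median of 0.17. Over all genes tested the median was 0.0025 and 50.3% of pairs were positive.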

How the data were processed

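Amplicons of the integrated sgRNA cassette were sequenced from genomic DNA. The authors' deposited table holds raw counts per sgRNA, unnormalized whole numbers, 1 column per library, with 0 columns left unmapped to a sample. MAGeCK is named per the submitters' processing notes, without a version; trimming, mismatch setting, sgRNA sequences and the meaning of T6 and T12 were not given in the sources used.

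The members and gene lists were chosen with earlier results of these data known. sgRNAs averaging at least 20 counts over the 10 libraries were kept (53040 of 55849), and a gene needed at least 2 kept sgRNAs (18197 genes). Counts were scaled by trimmed means of M values and fitted with edgeR 4.0.16 (R 4.3.3, quasi-likelihood, all 10 libraries in 6 groups, 4 residual degrees of freedom), with Benjamini-Hochberg adjustment over all kept sgRNAs at a threshold of 0.05. Robust rank aggregation gave gene p-values from one-sided edgeR p-values under 0.25, written for this work after MAGeCK's method and tested on simulated data. That test required changed genes to be recovered only at a dispersion of 0.05, far below the common dispersion of 1.11 fitted here. Calls of 0 genes therefore do not show that no gene differed. The pseudocount was 1 CPM. The median gene's own log2 value, subtracted from every gene log2 value, lay between -0.23 and 0.34. The edgeR and DESeq2 tests were of log2 folds before any median was subtracted. Of the 9 comparisons, 2 hold the values that chose the set and were not tested. Every exosome gene was named, and of the partners DIS3, DIS3L, SKIV2L2 and the lowest and highest in a comparison.

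Same-numbered T6 and T12 libraries are 1 culture followed over passages, per the labels' protocols. Their deviations from group means correlated at -0.00877 in NMYC and 0.0647 in parental cells over the kept sgRNAs. The pairing therefore rests on the protocols and was hardly seen in the counts. The alternatives were DESeq2 1.42.0, other size factors, other filters, a replicate block, each arm alone, edgeR on gene sums, other ways of averaging, both T0 libraries as the baseline and each T6 or T12 library left out.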

Additional observations from a re-analysis of the deposited data

Results flagged for a closer look

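For EXOSC1 and EXOSC2, both NMYC libraries at T12 lay on one side of their T0 library and both parental libraries on the other side. For EXOSC1 the log2 values of single T12 libraries over T0, minus the median gene, were -0.234 and -2.01 in NMYC cells and 0.645 and 0.468 in parental cells, a mean difference of -1.68. For EXOSC2 they were -2.57 and -1.73 in NMYC cells and 1.93 and 3.23 in parental cells, a mean difference of -4.73. These differences were not tested, since the comparison of T12 with T0 in NMYC cells chose the set. Opposite directions of this kind occurred in 2 of the 10 exosome genes and in 24.6% of the 18197 genes at T12, and in 0 of the 10 against 29.1% at T6. The values rest on 1 T0 library per arm, and the parental T0 library held 1 count of the EXOSC2 sgRNA HGLibB_15754.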

How the results depend on the processing

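Rank aggregation called 0 exosome genes in the 7 tested comparisons under every alternative run, and edgeR called 0 exosome sgRNAs under each of its alternatives and without any 1 library (range 0 to 0). With the replicate block, which pairs same-numbered cultures, 0 exosome sgRNAs and 0 genes were called in each of the 7. There were 0 calls without it too, so this says little about the pairing. Exosome sgRNAs at an unadjusted edgeR p under 0.05 did change. They numbered 4 without and 1 with the block at parental T12 over T0, and 6 and 4 between the arms at T12. Shares over all sgRNAs were not computed with the block. DESeq2 called 4 sgRNAs at parental T12 over T0, 2 at parental T6 over T0 and 6 between the arms at T12; the cause was not tested.

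Medians over the exosome genes varied more. Requiring at least 30 counts in both T0 libraries leaves fewer genes, 6 with at least 2 sgRNAs, and gave -2.02 (NMYC) and -0.24 (parental) at T12 over T0, -2.12 for the arm difference of these, -1.35 (NMYC) and -1.35 (parental) at T6 over T0, -0.83 (NMYC) and 0.77 (parental) at T12 over T6, and -1.48 at T12 and 0.14 at T6 for NMYC over parental. Averaging log2 values per library gave -1.72 (NMYC) and -0.17 (parental) at T12 over T0, -2.08 for their difference, -0.78 for NMYC T12 over T6 and -1.77 for NMYC over parental at T12. Averaging single sgRNAs gave -0.89 for NMYC T12 over T0, and -0.80 (NMYC) and -0.13 (parental) at T6 over T0. A pseudocount of 5 gave -0.76 for NMYC T6 over T0. With both T0 libraries as the baseline, NMYC T6 gave -1.44 and parental T12 gave -0.017.

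Leaving out each library in turn gave medians of -2.24 to -1.31 (NMYC) and -0.28 to 0.30 (parental) at T12 over T0, -2.36 to -0.99 for their difference, -1.68 to -0.62 (NMYC) and -0.86 to -0.32 (parental) at T6 over T0, -0.92 to 0.20 (NMYC) and 0.13 to 0.81 (parental) at T12 over T6, and -2.07 to -0.98 at T12 and -0.69 to -0.043 at T6 for NMYC over parental. The median of NMYC over parental at T12 was below 0 under every alternative run. All medians in this section include EXOSC4, whose NMYC T12 counts chose the set. Without EXOSC4 the main value at T12 was -0.60, and the alternatives were not run without it. Of 1354 values of single genes under an alternative, 76 had the other sign. Many of the 1354 left out a library that the comparison did not use, where the sign could hardly change. This share therefore understates how far the signs depended on single replicates. Single T0 libraries limit every comparison with T0, and the counts near 0 at T0 of several sgRNAs limit their folds.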
